A study of Mus musculus with 6 samples.

Results

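Cytosolic ribosomal proteins are the proteins that, together with ribosomal RNA, build the 2 subunits of the ribosome in the cytoplasm. They were chosen here by gene symbol alone: every probe set annotated with 1 symbol made of Rpl or Rps and a protein number, plus Rpsa, Rplp0 and Rplp2, with 1 probe set per gene, the one with the highest mean over all arrays. No measured difference entered this rule, although members were chosen with earlier results of these data known. The choice gave 49 genes of 18193 on the array, 26 of the large subunit and 23 of the small subunit. Of these, 47 passed the filter on low signals, 25 of the large and 22 of the small subunit; the probe sets of Rpl39l and Rps16 lay below it and were not tested. Family members found only on probe sets that carry several symbols, Rpl3 among them, are not named singly; 110 probe sets were of that kind.

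The study measured heart RNA on Affymetrix mouse genome arrays in 3 groups of 2 arrays, with all mice 8 months old and on a chow of 7% fat and 0.15% cholesterol. The first group was of apoE-deficient mice on a B6 background that received rosiglitazone, a thiazolidinedione drug for diabetes that activates the nuclear receptor PPARγ, at 30 mg/kg per day for 2 months from the age of 6 months; the labels call their hearts failing. The second group was of untreated apoE-deficient mice, and the third of untreated, non-transgenic B6 mice. Nothing in the labels tells whether 1 array stands for 1 mouse or for a pool, so the p-values measure the spread between arrays, which may be technical.

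A ribosome holds a single copy of nearly every ribosomal protein, and cells make the proteins in step with each other. The small subunit binds the mRNA and reads its codons, the large subunit joins the amino acids and releases the chain through an exit tunnel, and the acidic stalk proteins Rplp0 and Rplp2 recruit the elongation factors. Most ribosomal protein mRNAs begin with a C followed by a run of pyrimidines, the terminal oligopyrimidine tract, through which the kinase complex mTORC1 and the protein LARP1 govern their translation. An array measures the amount of these mRNAs and not their translation. A few family members have second gene copies: Rpl3l takes the place of Rpl3 in ribosomes of heart and skeletal muscle, and Rps4l, Rpl22l1, Rps27l, Rpl7l1 and Rpl39l are related to Rps4x, Rpl22, Rps27, Rpl7 and Rpl39.

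The pyrimidine run is a sequence feature that the choice by symbol did not use. RefSeq promoter sequences (assembly GRCm38.p6) were matched for 43 of the 49 genes. The windows below run from 10 bases before to 20 bases after the annotated transcript start, 5′ to 3′ on the gene's strand, with the longest run of C and T in capitals. The first 5 show the run and the last 4 are genes described below whose windows hold only short ones.
Rpl13a: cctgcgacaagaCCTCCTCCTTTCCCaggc
Rpl35: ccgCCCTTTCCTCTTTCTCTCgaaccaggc
Rps10: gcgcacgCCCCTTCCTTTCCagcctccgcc
Rpl22l1: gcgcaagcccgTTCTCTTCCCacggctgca
Rps6: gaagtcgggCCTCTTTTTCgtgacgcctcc
Rpl3l: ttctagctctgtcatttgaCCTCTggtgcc
Rps15: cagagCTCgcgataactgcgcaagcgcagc
Rps28: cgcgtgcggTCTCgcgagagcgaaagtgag
Rpl37a: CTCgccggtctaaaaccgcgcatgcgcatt

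These windows lie at chr7:45128726-45128755 (minus strand) for Rpl13a, chr2:39005112-39005141 (minus) for Rpl35, chr17:27635225-27635254 (minus) for Rps10, chr3:28805498-28805527 (plus) for Rpl22l1 and chr4:86857348-86857377 (minus) for Rps6. Those of the other 4 lie at chr17:24727816-24727845 (plus) for Rpl3l, chr10:80292421-80292450 (plus) for Rps15, chr17:33824543-33824572 (minus) for Rps28 and chr1:72711250-72711279 (plus) for Rpl37a. Each window covers the end of a promoter and the start of the first exon; Rpl3l has a further annotated start, whose window is not shown. Within 20 bases on either side of the start, 20 of the 43 genes (46.5%) had a run of 8 or more C or T on the transcribed strand, against 18.4% of all 27025 genes in the table. On the opposite strand 2 of the 43 (4.65%) had such a run, against 20.2% of all genes. The letters CTTTCC, which such a run can contain, were present on the transcribed strand in 7 of the 43 (16.3%) and in 2.3% of all genes, and on the opposite strand in 0 and in 2.03%. A match describes these letters only. Annotated starts can lie some bases away from the start used in the heart.

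The targeted gene fitted its labels: the log2 signal of Apoe was 11.88 ± 0.04 in B6 hearts, 5.77 ± 0.75 in untreated and 6.23 ± 0.04 in treated apoE-deficient hearts (mean ± SD, n = 2). The 18 cardiomyocyte markers were all measured, with summed signals of 248900 to 264700 on the 6 arrays after the normalization given below. Array brightness followed the groups: the 2%-trimmed mean signal was 340.7 and 263.4 on the treated, 125.6 and 130.4 on the untreated and 175.5 and 148.9 on the B6 arrays. Signals were therefore quantile-normalized, and values below are log2 of the normalized signal plus 11.1. In the treated group, summed white adipocyte markers stood at 39350 and 39810, against 16390 to 17570 on the other 4 arrays, airway and lung markers at 15340 and 16120 against 128.8 to 183.8, and T and B lymphocyte markers at 1719 and 2034 against 345.7 to 411.8. Called higher and lower in treated than in untreated hearts were 8 and 1 of 12 tested adipocyte markers (Lep lay below the filter), 5 and 0 of 8 airway markers (Sftpa1 and Sftpd below it), 3 and 1 of 7 lymphocyte markers (Cd2, Cd3d, Cd3e and Cd4 below it), 9 and 1 of 12 fibroblast and 5 and 7 of 18 cardiomyocyte markers. Of all 13236 tested genes 23.7% were called in this comparison. The cardiomyocyte split depended on the scaling of the arrays, as set out below for the ribosomal proteins. It was 0 and 18 with the trimmed mean (median -0.82), 0 and 18 with array medians (-0.75) and 0 and 15 with spike-in scaling (-0.64). Of the 1937 probe sets with a mean log2 signal of 10.6 or more, 59.7%, 52.6% and 39.3% were lower there. The shares higher were 10.6%, 13.5% and 19.3%. The fibroblast split also moved, to 6 and 3, 7 and 3, and 8 and 3. The ratio of 3′ to 5′ signal of the pyruvate carboxylase control was 6.36 and 6.51 on the treated arrays and 2.56 to 3.84 on the other 4, while those of Gapdh (0.853 to 0.923) and Actb (1.28 to 1.34) were alike on all 6. The part of these in the results below was not tested, and in whole tissue fewer cells of a type and less RNA per cell cannot be told apart.

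Ribosomal protein probe sets were among the brightest of the array. Of the 49, 27 lay in the top 1% of signals and 34 in the top 2%, and 33 had a mean log2 signal of 12 or more. The signal of a probe set is no measure of one mRNA against another. The median over the 47 tested genes was 12.54 and 12.62 on the treated, 12.65 and 12.64 on the untreated and 12.66 and 12.70 on the B6 arrays, so the family as a whole moved little on this scale. Replicate arrays lay close together, with a median SD of 0.0396 in the treated, 0.0230 in the untreated and 0.0337 in the B6 group. The largest SD was 0.980 for Rpl39 in the B6 group and 0.880 for Rpl12 in the untreated group, both dim probe sets, and 0.271 for Rps15 in the treated group.

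The first comparison asked what rosiglitazone changed in apoE-deficient hearts. With quantile normalization 10 ribosomal protein genes were higher and 12 lower in treated than in untreated hearts and 25 did not pass, while under 3 other scalings of the arrays 1 to 4 were higher and 29 to 35 lower, as set out below (limma, Benjamini-Hochberg adjusted p under 0.05, which is what "called" means here). The 22 calls are 46.8% of the 47, where 19.8% of all 27022 tested probe sets were called, 10% higher and 9.81% lower. Among the 1937 probe sets with a mean log2 signal of 10.6 or more, as most of the family have, 57.1% were called, so the family's share lay between those of all probe sets and of these bright ones. The bright set is not matched to the family, of which 33 genes lie at 12 or more and some below 10.6. The median log2 difference was -0.06 over the 47, -0.05 over the bright probe sets and -0.02 over all. Differences were small, under 0.25 in size for 33 of the 47 and 0.5 or more for 5. Without the first or the second untreated array, 5 and 7 genes in place of 12 were called lower.

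**Figure D1:**
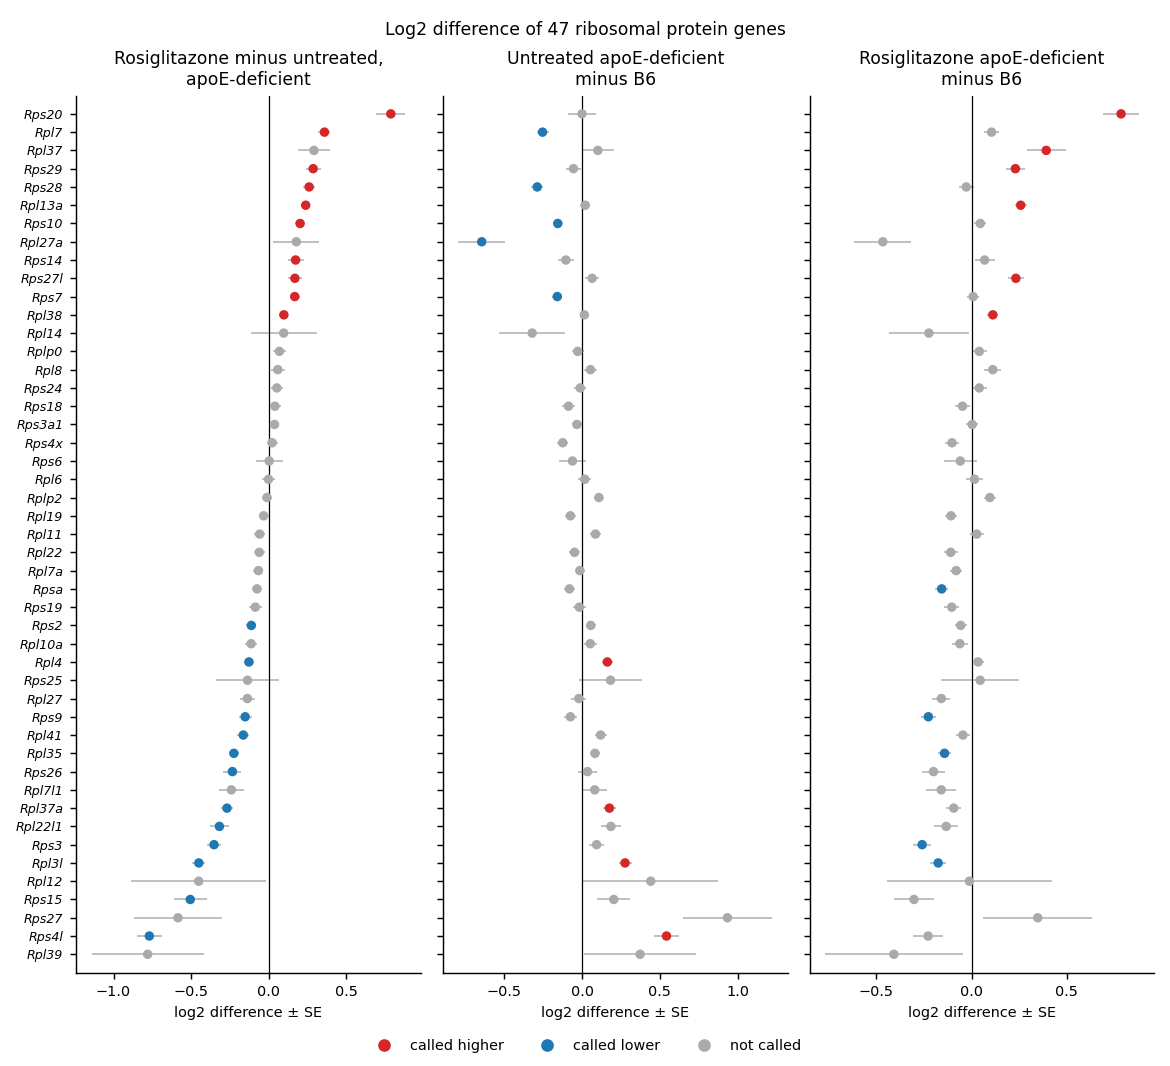
Log2 difference of each of the 47 tested genes in the 3 comparisons, with bars for the standard error of the fit; genes are in the order of the first panel, red points were called higher, blue points called lower and grey points not called. With quantile normalization 10 genes are called higher and 12 lower in the first panel, from Rps20 at 0.79 to Rps4l at -0.77, around a median of -0.06; the wide bars belong to dim probe sets such as Rpl39 and Rpl12.

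The muscle paralog Rpl3l, whose protein replaces Rpl3 in striated muscle ribosomes, had log2 signals of 11.26 and 11.24 in treated, 11.69 and 11.71 in untreated and 11.41 and 11.43 in B6 hearts. The 3 groups did not overlap, and the treated hearts were lowest. Treated minus untreated was -0.45 ± 0.042 (SE), a fold of 0.732 (limma adjusted p = 0.000134). Rps4l, a second copy of the small subunit protein Rps4x, stood at 9.09 and 9.04 in treated, 9.84 and 9.83 in untreated and 9.38 and 9.21 in B6 hearts. It showed the same order, with the untreated hearts highest, but treated minus B6 was not called (-0.23, limma adjusted p = 0.0918). Its difference between treated and untreated hearts was -0.77 ± 0.079 (limma adjusted p = 0.000222). These were the 2 members still called in this comparison when the variance was modelled without its trend with intensity, and both stayed called when any single array was left out and under spike-in, array-median and trimmed-mean scaling. Under those 3 scalings 29 to 35 of the 47 members were lower, and against the members' median neither gene was called in them, as given below.

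Rpl22l1, the paralog of the large subunit protein Rpl22, was also lower in treated hearts, at 10.51 and 10.38 against 10.82 and 10.71 (difference -0.32 ± 0.064, limma adjusted p = 0.00784), and kept its call with 5 of the 6 single arrays left out. Rps27l, the copy of Rps27 known as a target of p53, was higher at 11.52 and 11.48 against 11.33 on both untreated arrays (difference 0.17 ± 0.043, limma adjusted p = 0.0256); its call held with 3 of the 6 arrays left out. Rpl7l1 did not pass, with a difference of -0.24 ± 0.079 (limma adjusted p = 0.0641). The partners of these copies gave other values: Rps4x 0.02 ± 0.035, Rpl22 -0.06 ± 0.037 and the dim Rps27 -0.58 ± 0.285 did not pass, and Rpl7 was called higher. The difference between a copy and its partner was not tested.

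**Figure D2:**
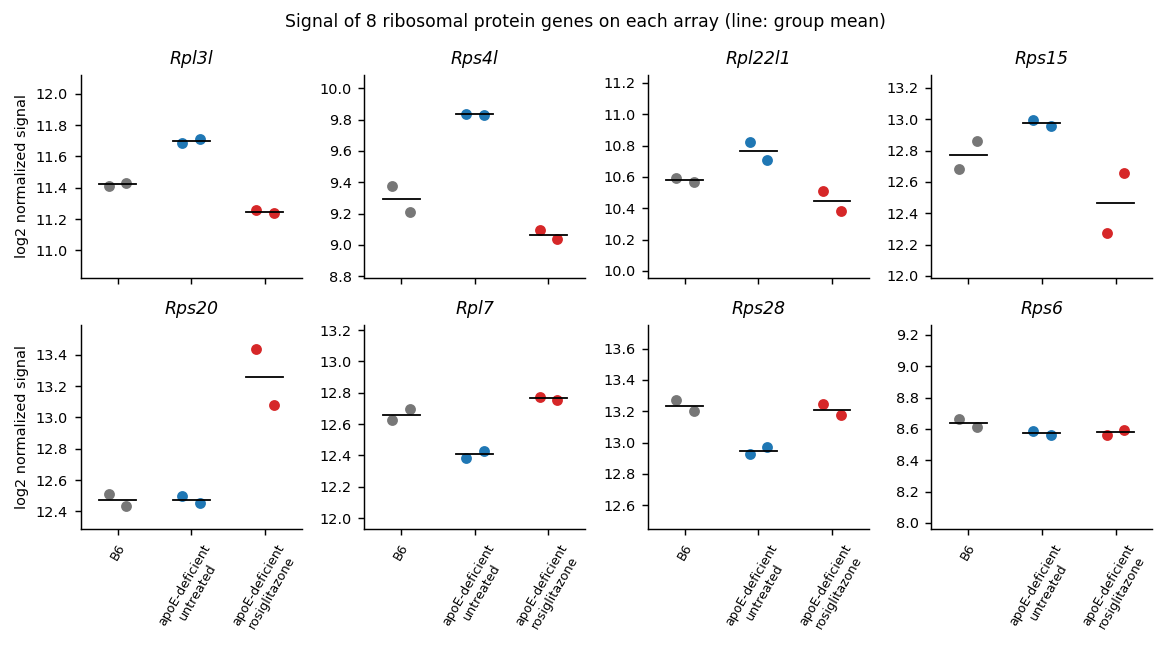
Log2 normalized signal of 8 ribosomal protein genes on each of the 6 arrays; points are arrays, black lines group means of 2 arrays, and every panel spans the same number of log2 units. Rpl3l and Rps4l are highest in untreated apoE-deficient hearts and lowest in treated ones, Rps20 is high only on the 2 treated arrays of these 6, and Rps6 is level at 8.56 to 8.66.

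Among small subunit proteins, 7 were higher and 6 lower of 22. Rps20, a protein of the subunit's head, showed the largest difference upward: 13.44 and 13.08 in treated against 12.50 and 12.45 in untreated and 12.51 and 12.44 in B6 hearts. The treated arrays lay above all others, although they lay further apart than the pairs of the other groups. The difference was 0.79 ± 0.093, a fold of 1.72 (limma adjusted p = 0.000507). The second bright probe set of Rps20 was also higher (0.48, limma adjusted p = 3.7e-05), and the call held under all 3 other scalings that use a single factor per array.

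Rps15, which reaches the decoding site, had 12.28 and 12.66 in treated and 12.99 and 12.96 in untreated hearts, a difference of -0.51 ± 0.105 (limma adjusted p = 0.00954) between groups that did not overlap but with treated arrays well apart. Rps3, Rps2 and Rps9, all near the channel through which mRNA enters the subunit, are described singly here and were not counted as a list. Rps3 stood at 12.09 and 11.99 against 12.37 and 12.41 (difference -0.35 ± 0.048, limma adjusted p = 0.00103) and was called lower, as was Rps2 (difference -0.11). Rps9 differed by -0.15 on the probe set used and was called lower there, while another of its probe sets was called higher (0.53, limma adjusted p = 0.00603). Rps26, at the mRNA exit, was also lower (difference -0.23). Rps10, Rps14, Rps28, Rps29 and Rps7 were called higher, by 0.17 to 0.29, but the differences of all 5 were negative under the 3 other scalings. Rps6, the substrate of S6 kinase, gave 0.00 ± 0.087.

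Of the 25 large subunit proteins 3 were higher and 6 lower. Rpl7 was higher at 12.78 and 12.75 against 12.39 and 12.43 (difference 0.36 ± 0.038, limma adjusted p = 0.000291), but stood at -0.00907 with trimmed-mean scaling. Rpl13a, which besides its place in the ribosome can silence translation of inflammatory mRNAs, was higher by 0.24 ± 0.031, and Rpl38 by 0.10 ± 0.029. Both differences were negative under the 3 other scalings. Of the 4 probe sets of Rpl13a, the 1 used was called higher and 2 were called lower (-0.31 and -0.23). The last gave 0.35 and was not called. Lower were, besides Rpl3l and Rpl22l1, Rpl37a (12.74 and 12.85 against 13.06 on both untreated arrays, difference -0.27 ± 0.039, limma adjusted p = 0.00152), Rpl35, a protein at the rim of the exit tunnel (difference -0.22), Rpl41 (difference -0.16) and Rpl4, which lines the tunnel (difference -0.13). Another probe set of Rpl37a, as bright (mean log2 12.915 against 12.916), gave 0.04 and was not called (limma adjusted p = 0.472). A dimmer one gave -0.76, not called (limma adjusted p = 0.0553). The stalk proteins Rplp0 (0.07 ± 0.040) and Rplp2 (-0.01 ± 0.031) did not pass, nor did Rpl11, which binds the p53 regulator Mdm2 when ribosome assembly is disturbed (-0.06 ± 0.036).

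The second comparison asked what the lack of apoE changed without the drug. Fewer ribosomal proteins differed: 4 were higher and 5 lower in untreated apoE-deficient than in B6 hearts, 19.1% of the 47, against 7.06% of all probe sets (3.17% higher, 3.9% lower) and 22.7% of the bright ones. The median difference was 0.02. Called higher were Rps4l (0.54 ± 0.079, limma adjusted p = 0.0053), Rpl3l (0.28 ± 0.042, limma adjusted p = 0.00663), Rpl37a (0.18) and Rpl4 (0.16), and all 4 stayed called under the 3 other scalings. Called lower were Rpl27a (-0.64 ± 0.149, limma adjusted p = 0.036), Rps28 (-0.29 ± 0.040), Rpl7 (-0.25 ± 0.038), Rps7 (-0.16) and Rps10 (-0.16). Rpl27a rests on a dim probe set with 7.36 and 7.18 in untreated and 7.77 and 8.05 in B6 hearts, and its call was lost with each single array left out. The Rps7 and Rps10 differences became positive under spike-in scaling (0.0872 and 0.0952).

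These counts leaned on single arrays. Without the first untreated array 2 genes were called higher and 1 lower, and without the second 1 and 2. With the first or the second B6 array left out, fewer genes were also called in each direction. Rps4l was called each time. This comparison and the first share the untreated arrays, so an untreated value that is high enters them with opposite signs. Side by side, on the probe sets used, Rpl3l, Rps4l, Rpl37a and Rpl4 were higher in untreated than in B6 hearts and lower in treated than in untreated hearts, and Rpl7, Rps28, Rps7 and Rps10 were lower and then higher. Another bright probe set of Rps10 gave the opposite order, 0.11 (not called) and then -0.36 (called). A further one was called higher in untreated against B6 hearts, where the probe sets of Rps10 ran from -0.16 to 0.28. Those of Rps7 ran from -0.16 to 0.06 in untreated against B6 hearts. In treated against untreated hearts the probe sets of Rps28 and of Rpl37a had mixed signs. All of Rpl7's kept their direction in both comparisons.

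The third comparison set treated apoE-deficient against B6 hearts. Here 6 genes were higher and 5 lower, 23.4% of the 47, against 15% of all probe sets (7.46% higher, 7.58% lower) and 51.8% of the bright ones, with a median difference of -0.05. Rps20 was again the gene with the largest increase (0.79 ± 0.093, limma adjusted p = 0.000639), followed by Rpl37 (0.39 ± 0.102), Rps27l (0.23), and by Rpl13a (0.26), Rps29 (0.23) and Rpl38 (0.11), whose sign turned under 2 or 3 of the other scalings. Rpl37 stood at 9.93 and 9.71 against 9.30 and 9.55. Lower were Rps3 (-0.26), Rps9 (-0.23), Rpl3l (-0.17), Rpsa (-0.16) and Rpl35 (-0.14). For Rps9 and Rpl35 another probe set was called higher in this comparison (0.51 and 0.15). Rpsa, also known as the laminin receptor, had 12.52 on both treated and 12.66 and 12.70 on the B6 arrays (limma adjusted p = 0.0168). Rpl3l lost this call and turned to 0.0693 under spike-in scaling, so treated hearts were set below B6 hearts for it in 3 of the 4 scalings only.

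The increases of Rps20, Rpl37 and Rps27l over B6 kept their sign in all 3 other scalings. Without the second B6 array 3 genes were called higher and 0 lower, with 9 and 9 at an unadjusted p under 0.05 (limma). Fewer genes were called in each direction without the first treated array, and more in each without the second. Treated and untreated hearts share the B6 arrays as their reference in this comparison and the second, and no test was made between them other than the first comparison.

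The direction of the family as a whole depended on how arrays were brought to a common scale. Quantile normalization, which gives all arrays the same distribution and so holds the brightest class of probe sets in place, gave 10 higher and 12 lower of 47 in treated against untreated hearts. Scaling by the array's trimmed mean gave 1 higher and 35 lower, and scaling by array medians 2 and 35. Scaling by the 18 hybridization controls, RNAs added in known amounts, gave 4 and 29. Of the bright probe sets 59.7%, 52.6% and 39.3% were called lower in these 3 scalings, and 10.6%, 13.5% and 19.3% higher. Of all probe sets 10.2%, 7.54% and 5.26% were lower, and 11.7%, 13.8% and 20.6% higher. The median of the 47 was -0.475, -0.402 and -0.297 in these 3 scalings, that of the 1937 bright probe sets -0.278, -0.205 and -0.0999, and that of all probe sets 0.0202, 0.0864 and 0.181. The difference between bright and other probe sets in these scalings shows a shift that changes with brightness, and most of the family is brighter than the limit of the bright set. With no scaling 43 were higher and 0 lower (0 lower also at an unadjusted p under 0.05, limma), and the median of all probe sets itself was 1.13.

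The 12 lower calls of the first comparison, from Rps4l to Rps2, were lower and called in all 3 of the single-factor scalings. Since 29 to 35 of the 47 were called lower there, this is no separate support for these 12. Of the 10 higher calls, Rps20 alone was called in all 3 and Rps27l alone of the others kept its sign in all 3. The other 8, Rpl7, Rpl13a, Rpl38, Rps7, Rps10, Rps14, Rps28 and Rps29, had negative differences under at least trimmed-mean scaling; Rpl7 turned in that scaling alone, to -0.00907. In the second comparison the split of 4 higher and 5 lower became 9 and 1 with the trimmed mean, 24 and 1 with the spike-in controls and 7 and 3 with array medians; with the spike-in controls 46.4% of the bright probe sets were higher and 2.37% lower, near the family's share. In the third, 6 and 5 became 2 and 31, 6 and 2, and 2 and 32, where 50.4%, 14.7% and 52.6% of the bright probe sets were lower.

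**Figure D3:**
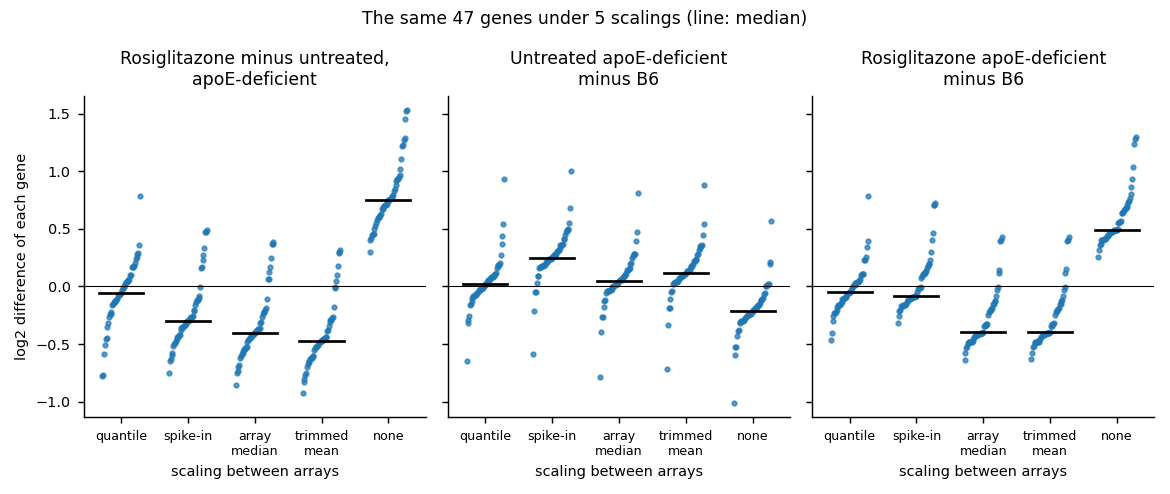
Log2 differences of the same 47 genes in the 3 comparisons under 5 ways of scaling the arrays; each point is a gene, sorted within a scaling, and the line is the median. For treated against untreated hearts the median moves from -0.06 with quantile normalization to -0.297, -0.402 and -0.475 with spike-in, array-median and trimmed-mean scaling, and to 0.748 without scaling, and single genes move with it.

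Members were also compared with each other: each array was centred on the median of the 47 genes and the fit repeated. With quantile normalization, in treated against untreated hearts 14 genes then stood apart from the family's median, 9 above and 5 below. Above were Rps20 (0.85 ± 0.112), Rpl7 (0.42 ± 0.052), Rps29 (0.35), Rps28 (0.32), Rpl13a (0.30), Rps10 (0.26), Rps27l (0.23), Rps7 (0.23) and Rpl38 (0.16). Below were Rps4l (-0.71 ± 0.095), Rps15 (-0.45 ± 0.085), Rpl3l (-0.39 ± 0.057), Rps3 (-0.29) and Rpl37a (-0.21). The scaling that preceded the centring changed this list. The 3 others each multiply an array by a single factor, so that after centring they gave nearly the same values, with 20 or 21 genes apart. Of the 14 genes, 12 kept their sign, all but Rpl38 and Rps29, and 8 were called each time: Rpl7, Rps20, Rps27l, Rps28 and Rps7 above, and Rpl37a, Rps15 and Rps3 below. Rps4l, Rpl3l, Rpl13a and Rps10 lost their call in all 3. With trimmed-mean scaling Rps4l stood at -0.31 from the median (limma adjusted p = 0.0614), Rpl3l at -0.16 (limma adjusted p = 0.0927), Rpl13a at 0.06 and Rps10 at 0.00, while Rps20 stayed at 0.73. Averaging a gene's probe sets after quantile normalization removed the calls of Rps28 (0.08), Rps7 (0.12), Rps3 (-0.22) and Rps27l (0.07). Rpl7, Rps20, Rpl37a and Rps15 kept theirs. Without the first or the second untreated array 7 and 8 genes stood apart.

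In untreated against B6 hearts 6 genes stood apart from the median: Rps4l (0.58), Rpl3l (0.32), Rpl37a (0.22) and Rpl4 (0.20) above, and Rps28 (-0.25) and Rpl7 (-0.21) below. Each kept its call in the 3 other scalings, but without either untreated array 0 genes stood apart (8 above and 3 below at an unadjusted p under 0.05, limma), and without either B6 array 1 did. In treated against B6 hearts 9 stood above and 0 below (16 and 4 at an unadjusted p under 0.05, limma), led by Rps20 (0.89 ± 0.112) and Rpl37 (0.49 ± 0.112). This split did not hold under other settings: 9 stood above and 6 below with each of the 3 other scalings, and with a gene's probe sets averaged 0 above and 4 below (4 and 14 at an unadjusted p under 0.05, limma), none of the 9 genes being called then; Rps20 stood at 0.31 (limma adjusted p = 0.066). Without the second treated array 18 stood apart, and without the second B6 array 3.

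For 24 of the 49 genes the array has several probe sets, for 21 of them at least 2 passed the filter, and these often disagreed. In treated against untreated hearts the probe sets of 9 genes all had the same sign and those of 12 did not, and for 6 genes probe sets were called in opposite directions. The differences of Rps10 were 0.20 on the probe set used and -0.36 on another, both called. Those of Rpl41 were -0.16 on the probe set used and 1.0 on another, the largest difference of any called ribosomal protein probe set. For Rps18 the probe set used gave 0.04, not called, and others gave -0.50 and -0.50, both called. Rps15 gave -0.51 on one and -0.06, not called, on the other. Rpl3l and Rps4l have 1 probe set each, so this check could not be made for them.

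**Figure D4:**
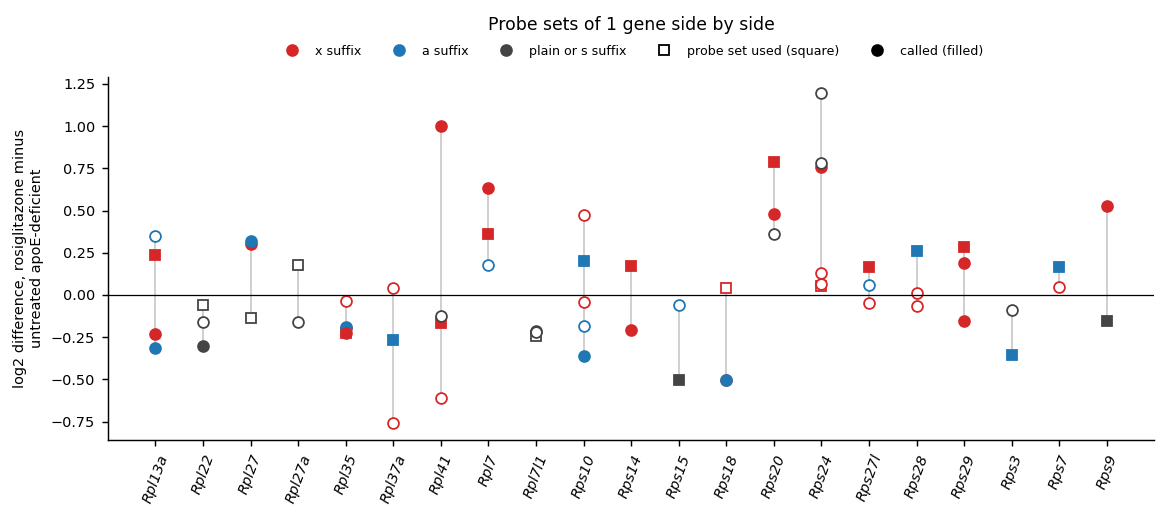
Log2 difference between treated and untreated apoE-deficient hearts for each tested probe set of the 21 genes with more than 1; squares are the probe sets used for the gene, filled symbols were called, colours give the suffix of the probe set name, and grey lines span a gene's probe sets. The probe sets of 12 of the 21 genes lie on both sides of 0, among them Rpl41 from -0.61 to 1.0, while those of Rps20 and Rpl7 are all above 0.

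The suffix x in a probe set's name marks probes that can also pair with other transcripts, and a marks probe sets shared by transcripts of a gene. Ribosomal proteins have many processed pseudogenes, and the x suffix was carried by 13 of the 49 probe sets used. With quantile normalization, of the 38 tested ribosomal protein probe sets with an x, 14 were higher and 8 lower in treated than in untreated hearts; of the 27 with an a, 4 and 9; and of the 27 with a plain name or an s, 0 and 5 (1 and 9 at an unadjusted p under 0.05, limma). Among all bright probe sets the x class held 117 higher and 85 lower of 321 and the a class 122 and 164 of 517. With the brightest probe set that has no x taken for each gene, an alternative chosen after the data were seen, 3 genes in place of 10 were called higher and Rpl13a turned to -0.311. The 99 tested probe sets with several symbols, a ribosomal protein among them, gave 20 higher and 24 lower with a median of -0.02, but 6 and 67 with the trimmed mean, 8 and 65 with array medians and 10 and 52 with spike-in scaling.

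Genes with and without the pyrimidine run were found on both sides. Of the 20 tested genes with a run near the start 4 were higher and 5 lower in treated than in untreated hearts, with a median of -0.02, and of the 21 matched genes without it 2 and 6, with a median of -0.09; the difference was not tested. Of 17 other genes known for such mRNAs, 1 was higher and 4 lower, which became 1 and 10 with the trimmed mean, 2 and 10 with array medians and 4 and 3 with spike-in scaling. The higher gene was Eef1a1, the factor that brings tRNA to the ribosome (0.41 ± 0.032, limma adjusted p = 5.2e-05). Like several of the ribosomal proteins called higher, it turned negative under the 3 other scalings (-0.264 to -0.0862). Tpt1, a growth-related protein with a well-known pyrimidine tract, was lower (-0.26 ± 0.060, limma adjusted p = 0.0145).

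The genes that make and run ribosomes were read from lists written with earlier results of these data known, over genes, of which 23.7% were called in treated against untreated hearts. Of 100 ribosome assembly factors 0 were higher and 15 lower (2 higher at an unadjusted p under 0.05, limma), with a median of -0.183; this split was 1 and 10 with the trimmed mean, 5 and 3 with array medians and 12 and 2 with spike-in scaling, under which 20.6% of all probe sets were higher and 5.26% lower. Nop10, a small protein of the particles that place pseudouridine in ribosomal RNA, was lower (difference -0.45 ± 0.049, limma adjusted p = 0.000301), and Ltv1, which guides the small subunit out of the nucleus, was also lower (-0.81 ± 0.165, limma adjusted p = 0.00868); both kept their direction in the 3 other scalings. Of 15 genes of RNA polymerase I, which transcribes ribosomal RNA, 0 were higher and 3 lower (1 higher at an unadjusted p under 0.05, limma), but 1 and 0 with array medians and 2 and 0 with spike-in scaling. Of 30 initiation factors 2 were higher and 12 lower, 1 and 15 with the trimmed mean, 1 and 11 with array medians and 3 and 2 with spike-in scaling. Of 9 elongation and termination factors 1 was higher and 2 lower, 0 and 5 with the trimmed mean.

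Of 19 genes of the mTORC1 pathway 3 were higher and 3 lower, 4 and 3 with the trimmed mean, 5 and 3 with array medians and 7 and 2 with spike-in scaling. Tsc2, part of the complex that holds mTORC1 in check, was lower in treated hearts (-0.53 ± 0.068, limma adjusted p = 0.000844), and Rheb, the small GTPase that this complex switches off, was higher (0.41 ± 0.074, limma adjusted p = 0.00449), as was the mTOR inhibitor Deptor (0.70 ± 0.094, limma adjusted p = 0.00102); all 3 kept their direction in the 3 other scalings. In untreated against B6 hearts Tsc2 was higher (0.38) and Deptor lower (-0.75), with the shared untreated arrays entering again. Of 11 genes of the Myc network 0 were higher and 2 lower (0 higher also at an unadjusted p under 0.05, limma) and 1 and 1 with spike-in scaling, and of 12 genes of p53 and its targets 3 and 2.

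The mitochondrion has ribosomes of its own, whose proteins come from other nuclear genes. Of 76 mitochondrial ribosomal proteins 2 were higher and 33 lower in treated than in untreated hearts (46.1% called, median -0.148), against 10 and 12 of 47 for the cytosolic family with the same quantile normalization. The mitochondrial split was 0 and 34 with the trimmed mean, 2 and 28 with array medians and 8 and 16 with spike-in scaling, so more were lower than higher in all 4; the cytosolic family gave 1 and 35, 2 and 35, and 4 and 29 of 47 there, a larger lower share than the mitochondrial one. In untreated against B6 hearts 5 were higher and 0 lower (25 and 3 at an unadjusted p under 0.05, limma), where 8.51% of genes were called, and in treated against B6 hearts, where 18.7% were, 4 and 18, which became 33 and 1 with spike-in scaling, under which 26% of all probe sets were higher and 2.12% lower. With trimmed-mean, array-median and spike-in scaling, 59.7%, 52.6% and 39.3% of the bright probe sets were lower in treated than in untreated hearts. The shares higher were 10.6%, 13.5% and 19.3%. Of all probe sets 10.2%, 7.54% and 5.26% were lower, and 11.7%, 13.8% and 20.6% higher. The families were not matched for brightness, and the difference between them was not tested.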

How the data were processed

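Labelled cRNA from total heart RNA was read on 6 Affymetrix arrays. Each deposited value is an intensity on a linear scale for 1 probe set. GCOS is named in the submitters' processing notes, with no version or scaling stated. Of 45101 probe sets, 64 controls were left out. The intensities of the other 45037 were quantile-normalized, 11.1 (their 25th percentile) was added and log2 taken. The 27022 with a mean above the 40th percentile (4.99) entered 1 limma 3.58.1 fit (R 4.3.3) of 3 groups with an intensity trend (3 residual and 5.97 prior degrees of freedom), tested on simulated data. Folds are on this log2 scale, which understates changes of dim genes, and the number of arrays limits the precision. The array's annotation gave 34945 probe sets 1 gene symbol, 932 several and 9160 none. Alternatives changed the scaling, pseudocount, filter, variance model, probe set choice, samples and replicate block. Named by rule were, per comparison, the 5 highest and 5 lowest members, those unlike the members' median (up to 6 each way), second copies with their partners, stalk proteins, Rpsa, Rps6, Apoe and up to 3 genes of each list by smallest p; other members were named after their values were seen. Members and gene lists were chosen with earlier results of these data known. Same-numbered arrays of 2 groups did not deviate together (correlations of -0.00632, 0.0329 and 0.0196).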

Additional observations from a re-analysis of the deposited data

How the results depend on the processing

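Signs of bright members turned with the scaling in treated against untreated hearts, the cause not tested. Trimmed-mean scaling gave -0.379 for Rpl13a, -0.631 for Rpl38, -0.00907 for Rpl7, -0.435 for Rps10, -0.515 for Rps14, -0.293 for Rps28, -0.529 for Rps29, -0.275 for Rps7 and -0.264 for Eef1a1. Array medians gave -0.306 for Rpl13a, -0.558 for Rpl38, -0.362 for Rps10, -0.442 for Rps14, -0.22 for Rps28, -0.456 for Rps29, -0.202 for Rps7 and -0.191 for Eef1a1. Spike-in scaling gave -0.201 for Rpl13a, -0.453 for Rpl38, -0.257 for Rps10, -0.337 for Rps14, -0.115 for Rps28, -0.351 for Rps29, -0.0972 for Rps7 and -0.0862 for Eef1a1. In treated against B6 hearts, trimmed-mean, array-median and spike-in scaling gave -0.484, -0.486 and -0.168 for Rpl38 and -0.487, -0.489 and -0.171 for Rps29; the first 2 gave -0.209 and -0.211 for Rpl13a and -0.165 and -0.167 for Eef1a1; spike-in scaling gave 0.0693 for Rpl3l and 0.00291 for Nop10. In untreated against B6 hearts it gave 0.0952 for Rps10 and 0.0872 for Rps7. Relative to the member median, trimmed-mean scaling gave -0.194 for Rpl38 and -0.0922 for Rps29 (treated against untreated), and -0.12 for Rpl38, -0.124 for Rps29 and -0.039 for Rplp2 (treated against B6).

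The counts of members called higher and lower in treated against untreated, untreated against B6 and treated against B6 hearts (10 and 12, 4 and 5, 6 and 5) became 1 and 35, 9 and 1, 2 and 31 with trimmed means; 4 and 29, 24 and 1, 6 and 2 with spike-ins; 2 and 35, 7 and 3, 2 and 32 with array medians; and 43 and 0, 0 and 3, 41 and 0 without scaling (43 and 0, 1 and 7, 42 and 0 at an unadjusted p under 0.05, limma). The members' medians (-0.0589, 0.0178 and -0.0474) became -0.475, 0.121 and -0.397; -0.297, 0.25 and -0.0821; -0.402, 0.0514 and -0.399; and 0.748, -0.21 and 0.491. Members unlike their median (14, 6 and 9) became 21, 10 and 15 with trimmed means.

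Without scaling, where the median of all probe sets moved by 1.13, -0.319 and 0.815, lower calls of treated against untreated hearts turned to 0.832 (Rpl22l1), 0.574 (Rpl35), 0.456 (Rpl37a), 0.622 (Rpl3l), 0.529 (Rpl4), 0.418 (Rpl41), 0.298 (Rps15), 0.401 (Rps2), 0.757 (Rps26), 0.605 (Rps3), 0.458 (Rps4l), 0.706 (Rps9), 0.461 (Ltv1), 0.506 (Nop10), 0.167 (Tpt1) and 0.694 (Tsc2), and of treated against B6 hearts to 0.465 (Rpl35), 0.641 (Rpl3l), 0.491 (Rps3), 0.406 (Rps9), 0.477 (Rpsa) and 0.576 (Nop10).

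Averaging a gene's probe sets gave 4 higher and medians of -0.0141 and -0.00362 against the untreated and B6 groups, 2 lower in untreated and 3 in treated hearts against B6, and 4 unlike the median in the latter; it turned Rpl41 to 0.0256, Rps10 to -0.00276, Rps14 to -0.0163 and Rps9 to 0.218 (treated against untreated), Rpl27a to 0.163 and Rps10 to 0.0743 (untreated against B6), and Rps9 to 0.161 (treated against B6). The brightest probe set without an x, chosen after seeing the data, gave 3 higher in treated against untreated and 1 against B6, and turned Rpl13a to -0.311 and -0.0973. Without the intensity trend 0 and 2, 0 and 0, and 0 and 0 were called and 0 were unlike the median in each comparison; at an unadjusted p under 0.05 these were 5 and 8, 3 and 4, and 4 and 3 (limma). Without the filter 2 and 2 were called in untreated against B6 hearts. The replicate block, whose numbers did not pair the arrays, gave 8 lower in treated against B6 hearts in place of 5 and left the other counts within 1.5 times.

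With single arrays left out (a lone array is then assumed to vary like the other groups) higher and lower calls ran from 7 to 11 and 5 to 13, from 1 to 6 and 1 to 5, and from 3 to 8 and 0 to 9, and members unlike the median from 7 to 19, 0 to 9 and 3 to 18. The pseudocount of 1 or 50 and fits of only the 2 groups compared moved no count of higher or lower calls by over 1.5 times and turned no sign of a called member. Dim probe sets (Rpl12, Rpl14, Rpl39, Rps25, Rps27) had standard errors of 0.204 to 0.434, and a difference of 0.93 in Rps27 (untreated against B6, limma adjusted p = 0.0896) was not called, so differences of several times the standard error can be missed for them.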

Other observations

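The array also carries control probe sets for 18S ribosomal RNA. Over the array's trimmed mean, the one for the 3′ part gave 0.461 and 0.504 on the treated, 0.432 and 0.357 on the untreated and 0.762 and 0.656 on the B6 arrays. The one for the 5′ part gave 0.536 and 0.420 on the treated, 0.326 and 0.302 on the untreated and 0.605 and 0.660 on the B6 arrays, and the middle one 1.07 and 1.05, 0.466 and 0.393, and 1.25 and 1.75. All 3 were lowest on the untreated and highest on the B6 arrays. Among genes of translation outside the family, initiation factors in treated against B6 hearts gave 2 higher and 9 lower of 30, which became 13 and 1 with spike-in scaling. Of 100 ribosome assembly factors 1 was higher and 4 lower in that comparison, and 28 and 1 with spike-in scaling, where 26% of all probe sets were higher and 2.12% lower.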
